A study of Mus musculus with 6 samples.

Results

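The genes of the fibrillar collagens were examined in RNA-seq libraries of EGFP+ cells that were sorted from mouse ventricles 4 weeks after the aorta had been narrowed by surgery (transverse aortic constriction, TAC) to load the heart with pressure. The 10 genes, chosen by symbol as chains of the fibril-forming collagens, were *Col1a1*, *Col1a2*, *Col2a1*, *Col3a1*, *Col5a1*, *Col5a2*, *Col5a3*, *Col11a1*, *Col24a1* and *Col27a1*, and all 10 were found among the 28987 genes of the deposited table. All mice carried a tamoxifen-activated Cre recombinase (MerCreMer) in the *Postn* locus and a Cre-dependent eGFP reporter in the *Rosa26* locus, received tamoxifen (injected at 100 mg/kg and fed in chow at 40 mg/kg, per the labels), and underwent TAC at 8 to 10 weeks of age. The 3 control libraries (replicates 2, 3 and 4) came from mice with these alleles alone, and the 3 libraries labelled Hsp47-deleted (replicates 1, 2 and 3, called Hsp47flox/flox libraries here) from mice that also carried Hsp47flox/flox, so that deletion was limited to cells in which *Postn* had been switched on. Per the study's methods only males were used. The labels do not say whether a library came from 1 mouse, so p-values measure the spread between these libraries, which may be technical. The comparison asks whether loss of Hsp47, a chaperone of procollagen, went with a change in the mRNA of the chains that it helps to fold.

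Fibrillar collagens are made as procollagen chains that join in threes in the endoplasmic reticulum, wind into a rigid triple helix with the help of Hsp47, and are secreted, trimmed and assembled into the fibrils that give tissue its tensile strength. In the heart, activated fibroblasts are their main source after injury, and types I and III form the bulk of the scar and of interstitial fibrosis. Type V chains are built into type I fibrils and govern how they start and how thick they grow, types II and XI belong mainly to cartilage, and types XXIV and XXVII are minor members of the family.

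In these libraries the type I and III chains and the type V chains *Col5a1* and *Col5a2* were present at high levels, and no member was lower in the Hsp47flox/flox libraries without overlap between the groups. The mean differences varied in size and sign between chains, but a difference of the chains from each other was not shown. The limma confidence interval of each tested chain included the median difference of all tested genes, 0.355. The exact permutation test used for ratios between chains cannot reach a p under 0.10 with 3 libraries against 3. *Col5a2*, *Col27a1*, *Col5a1* and *Col1a2* were at higher values in every Hsp47flox/flox library than in every control, *Col3a1* hardly differed, and *Col11a1* had the one lower mean among the 10. At a Benjamini-Hochberg (BH)-adjusted limma p under 0.05 none of the 8 genes that passed the filter on low values was called, against 37 of 15109 genes (0.245%) over the whole table, 35 of them higher (0.232%) and 2 lower (0.0132%). At an unadjusted p under 0.05, 1 of the 8 was called, *Col5a2*. Over all tested genes 15.2% reached that level, 14.5% as higher and 0.755% as lower.

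The 3' untranslated regions of most members hold a shared sequence, which is shown first. The miR-29 microRNAs are known to bind mRNAs of extracellular matrix proteins through their seed, bases 2 to 8, which is the same in all family members. The mature sequences from RefSeq (GRCm38.p6) are shown with the seed in capitals. The genes of miR-29a and 1 copy of miR-29b lie on chromosome 6, and those of miR-29c and the other copy of miR-29b on chromosome 1.
mmu-miR-29a-3p: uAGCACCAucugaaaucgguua
mmu-miR-29b-3p: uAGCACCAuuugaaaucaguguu
mmu-miR-29c-3p: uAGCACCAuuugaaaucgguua

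The reverse complement of this seed, TGGTGCT, was searched on the transcript strand in the longest annotated 3' untranslated region of each gene (GENCODE release M21, GRCm38). It was present in 9 of the 10 members, *Col1a2* being the exception, and in 15.5% of 12755 tested genes with such a region. The median length of the region was 1364 bases in the members and 1185 bases in the tested genes. *Col5a1* held 4 matches, *Col5a3* 3 and *Col11a1* 2, and the other 6 members held 1 each. The annotation column of the deposited table lists a miR-29 site for all 10 members and for 23.7% of the tested genes. A match is a run of letters and not a measured site, and the levels of miR-29 were not analysed here. Matches of 5 members follow with the heptamer in capitals, for the 2 most abundant types, both main type V chains and *Col11a1*. Shown are the second of the 4 matches of *Col5a1* and the first of the 2 of *Col11a1*. An A follows the heptamer in 2 of the 4 matches of *Col5a1*, the one shown included, and in 0 of the 2 of *Col11a1*. They lie at chr11:94952517-94952545 (*Col1a1*, plus strand), chr1:45348961-45348989 (*Col3a1*, plus strand), chr2:28038013-28038041 (*Col5a1*, plus strand), chr1:45374965-45374993 (*Col5a2*, minus strand) and chr3:114219062-114219090 (*Col11a1*, plus strand).
Col1a1: ggtggggtgggaaggaatttcTGGTGCTa
Col3a1: tccaacttcaaaatgtctcaaTGGTGCTa
Col5a1: attttttacacttgtctcttgTGGTGCTa
Col5a2: ttataacttttcttttaatgaTGGTGCTa
Col11a1: cttttcctatttggatttcgtTGGTGCTg

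The values are log2(value + 1) as deposited, in a linear unit that the sources do not name. The submitters' processing notes list kallisto, whose usual unit is per transcript length, and the mm10 build. With the log2 undone the libraries summed to 690499 to 855404. Depth is unknown. Controls 3 and 4 carry one run number in the labels (here the first run), and control 2 and the 3 Hsp47flox/flox libraries another (the second run), so the difference from control 2 alone, untested, stands next to the pooled difference. Over the 15109 tested genes the median log2 difference between the groups was 0.355 rather than 0, and 74.5% of the differences were above 0. Differences of the members are therefore also given relative to that median. The targeted gene, *Serpinh1* (Hsp47), did not differ in the pooled comparison, with log2 values of 7.60, 6.28 and 6.10 in controls 2, 3 and 4 and 6.87, 6.67 and 6.66 in Hsp47flox/flox 1, 2 and 3 (log2 difference 0.072, standard error 0.43, limma, BH-adjusted p = 0.947). It was 0.87 lower than in control 2. The floxed part of the gene cannot be seen in a value per gene, and directions below are those of the labels. At the protein level, the study reported efficient loss of Hsp47 by Western blot of sorted EGFP+ cells.

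The libraries held fibroblast RNA by their markers. *Dcn*, encoding the matrix proteoglycan decorin, had linear values from 5090 to 7400 in controls and from 7750 to 8640 in the Hsp47flox/flox libraries, and none of the 8 fibroblast markers was at 0 in any library. Summed over the list, fibroblast markers were at 7960 to 10900 in controls and 13200 to 14400 in the Hsp47flox/flox libraries, without overlap. Of the 8, *Dcn*, *Vim*, *Postn* (56.9 to 68.5 and 1190 to 1450) and *Tcf21* were higher without overlap, while *Lum* (1200 to 1400 and 1140 to 1260), *Pdgfra*, *Ddr2* and *Thy1* overlapped. Markers of cardiomyocytes (10 genes, 49.3 to 287 and 177 to 292), endothelial cells (8 genes, 92.6 to 248 and 157 to 235), leukocytes (9 genes, 39.1 to 255 and 129 to 198, *Ptprc* at 0 in every library), mural cells (7 genes, 164 to 288 and 112 to 169), Schwann cells (5 genes, 4.23 to 8.43 and 8.35 to 9.18) and mesothelial cells (5 genes, 1.37 to 6.23 and 3.48 to 11.2) overlapped between controls and the Hsp47flox/flox libraries, in that order. For cardiomyocytes (98.5 and 49.3), endothelial cells (147 and 92.6) and leukocytes (39.1 and 81.9), controls 3 and 4 lay below each Hsp47flox/flox library. The overlap there came from control 2 (287, 248 and 255), as it did for Schwann cells. Of the cardiomyocyte markers *Myh6* (2.1 to 14.7 and 16.7 to 30.3) and *Ttn* (3.63 to 8.72 and 10.6 to 37.2) were higher without overlap, and the others overlapped. Chondrocyte markers (8 genes) summed to 53.6 to 142 in controls and to 577 to 804 in the Hsp47flox/flox libraries. In the Hsp47flox/flox libraries most of that sum was *Comp* (28.4 to 101 and 500 to 687), and *Sox9* (19.0 to 32.1 and 38.5 to 67.7) and *Chad* (4.45 to 8.24 and 26.3 to 47.9) were also higher without overlap. *Matn1* was at 0 throughout, and *Acan*, *Matn3*, *Col9a1* and *Hapln1* averaged under 1, *Matn3* being higher without overlap at these low values. Tenocyte markers (5 genes) summed to 371 to 575 and 1090 to 1460. Most of that sum was *Thbs4* (270 to 451 and 666 to 826) and *Fmod* (71.9 to 112 and 361 to 573), both higher without overlap. *Tnmd* (8.64 to 16.8 and 46.1 to 55.6) was also higher without overlap. *Scx* (1.74 to 5.69 and 4.56 to 14.8) overlapped, and *Mkx* averaged under 1. The part of these markers in the differences of the collagen genes was not tested. In sorted bulk RNA, fewer cells of a type and less RNA per cell cannot be told apart.

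*Col3a1*, the single chain of type III collagen, had the highest value of the 10 genes, the 68th highest mean log2 value of the 15109 tested genes. Its log2 value was 9.79, 9.58 and 9.48 in controls 2, 3 and 4, and 9.84, 10.04 and 9.38 in Hsp47flox/flox 1, 2 and 3. The groups overlapped, and the lowest and highest values both came from Hsp47flox/flox libraries. Controls averaged 9.62 ± 0.16 (SD, n = 3) and the Hsp47flox/flox libraries 9.75 ± 0.34 (SD, n = 3), a log2 difference of 0.14 (95% interval from -0.60 to 0.87, limma, BH-adjusted p = 0.852), which lay 0.22 below the median of all tested genes. The sign of this difference was not fixed. It was -0.28 when each library was centred on its median, -0.35 with quantile normalization and -0.039 against control 2 alone.

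The 2 chains of type I collagen followed in level. *Col1a2* was at 9.11, 8.89 and 8.91 in controls 2, 3 and 4, and at 9.46, 9.79 and 9.22 in Hsp47flox/flox 1, 2 and 3, so that the groups did not overlap. Its mean was 8.97 ± 0.12 (SD, n = 3) in controls, against 9.49 ± 0.29 (SD, n = 3), a log2 difference of 0.52 (95% interval from -0.18 to 1.22, limma, BH-adjusted p = 0.42) that became -0.046 with quantile normalization. The difference of *Col1a2* from control 2 alone was 0.38. *Col1a1*, the other type I chain, was at 8.74, 8.20 and 8.41 in controls 2, 3 and 4, and at 9.14, 9.52 and 8.70 in Hsp47flox/flox 1, 2 and 3. Control 2 lay just above Hsp47flox/flox 3, the only overlap between the groups for this gene. The difference of *Col1a1* (0.67, 95% interval from -0.11 to 1.45, limma, BH-adjusted p = 0.374) was 0.38 against control 2 alone and 0.26 with the libraries centred on their medians.

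**Figure D1:**
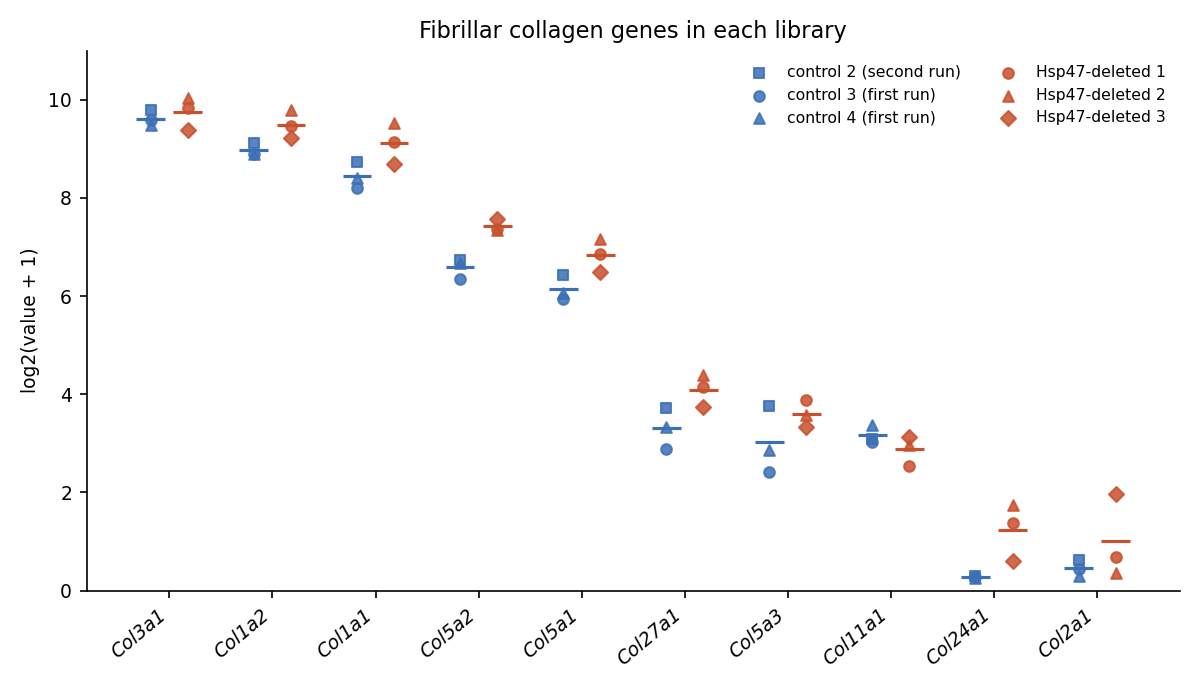
Log2(value + 1) of the 10 fibrillar collagen genes, ordered by mean linear value, in the 3 control libraries (blue) and the 3 Hsp47flox/flox libraries (orange), with 1 point per library and a line at each group mean. The levels span from above 9 for *Col3a1* to under 1 for *Col24a1* and *Col2a1* in controls, and the groups separate without overlap for *Col1a2*, *Col5a2*, *Col5a1*, *Col27a1* and *Col24a1*.

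The 2 main chains of type V collagen were higher in every Hsp47flox/flox library than in every control. *Col5a2* had the largest difference of the 8 tested members and the smallest p. Its log2 value was 6.73, 6.35 and 6.68 in controls 2, 3 and 4, and 7.36, 7.34 and 7.57 in Hsp47flox/flox 1, 2 and 3. In linear units the controls ranged from 80.5 to 105.3 and the Hsp47flox/flox libraries from 161.5 to 188.5. The log2 mean of *Col5a2* was 6.58 ± 0.21 (SD, n = 3) in controls, against 7.42 ± 0.12 (SD, n = 3), a difference of 0.84 (95% interval from 0.20 to 1.47, limma, unadjusted p = 0.0159, BH-adjusted p = 0.283). By p, 841 of the 15109 genes ranked at or before it. The difference was 0.69 against control 2 alone, and it stayed above 0 under each alternative tried. The values ran from 0.42 with centring on the median to 0.92 with the replicate number as a block (libraries numbered 2 and 3 only). Alternatives that change only the filter or the variance estimate leave the difference as it is. Without control 2, *Col5a2* had an adjusted limma p of 0.0469, but the groups are then also the 2 runs, and 2768 genes passed.

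*Col5a1*, the chain found in most forms of type V collagen, was at 6.44, 5.94 and 6.07 in controls 2, 3 and 4, and at 6.86, 7.16 and 6.49 in Hsp47flox/flox 1, 2 and 3. The separation was narrow, between 6.44 in control 2 and 6.49 in Hsp47flox/flox 3. The log2 difference of *Col5a1* was 0.69 (95% interval from -0.02 to 1.41, limma, BH-adjusted p = 0.335), and 0.40 against control 2 alone. *Col5a3*, a chain of a less common form of type V, was far lower, with linear values of 12.6, 4.37 and 6.25 in controls 2, 3 and 4 and 13.8, 10.9 and 9.11 in Hsp47flox/flox 1, 2 and 3. Here control 2 stood with the libraries of its own run and above those of the other controls. The log2 difference of *Col5a3* was 0.58 (95% interval from -0.37 to 1.53) in the pooled comparison and -0.17 against control 2 alone. Annotated genes on the opposite strand overlap *Col5a1*, *Col5a3* and *Col24a1*, and whether the counting used strand is not given in the sources used here.

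*Col11a1*, a type XI chain that is also built into fibrils outside cartilage, was the one tested member with a lower mean in the Hsp47flox/flox libraries. Its log2 value was 3.09, 3.03 and 3.36 in controls 2, 3 and 4, and 2.54, 2.97 and 3.13 in Hsp47flox/flox 1, 2 and 3. Hsp47flox/flox 3 lay among the controls, so the groups overlapped. The difference was -0.28 (95% interval from -1.01 to 0.44, limma, BH-adjusted p = 0.674), and -0.21 against control 2 alone. It was below 0 under each of the 18 alternatives. The values ran from -0.009 with the replicate number as a block (libraries numbered 2 and 3 only) to -0.70 with centring on library medians. Not all of these are separate checks, since those that change only the filter or the variance estimate leave the difference at -0.28. Run as a covariate and the second run alone give the same -0.21.

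*Col27a1*, the chain of the minor fibrillar collagen XXVII, was at 3.73, 2.89 and 3.33 in controls 2, 3 and 4, and at 4.14, 4.40 and 3.74 in Hsp47flox/flox 1, 2 and 3. The groups did not overlap, although Hsp47flox/flox 3 was close to control 2. The log2 difference of *Col27a1* was 0.78 (95% interval from -0.02 to 1.58, limma, BH-adjusted p = 0.334), and 0.37 against control 2 alone.

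The 2 remaining genes had a mean linear value under 1 and did not pass the filter. *Col24a1*, the other minor fibrillar chain, had linear values of 0.225, 0.217 and 0.187 in controls 2, 3 and 4, and of 1.59, 2.33 and 0.508 in Hsp47flox/flox 1, 2 and 3. Each Hsp47flox/flox library was above each control for *Col24a1*, at values where the pseudocount of 1 takes up most of the log2 scale (log2 difference 0.96, standard error 0.31, limma without the filter, BH-adjusted p = 0.466). *Col2a1*, the chain of cartilage collagen II, had linear values of 0.546, 0.351 and 0.236 in controls 2, 3 and 4, and of 0.614, 0.285 and 2.90 in Hsp47flox/flox 1, 2 and 3. Its higher mean in the Hsp47flox/flox libraries came mostly from replicate 3, the other 2 lying within or just above the controls (0.55, standard error 0.46, limma without the filter, BH-adjusted p = 0.734). From control 2 alone *Col24a1* differed by 0.94 and *Col2a1* by 0.38. The members nearest to the filter were *Col24a1* with a mean of 0.843 just outside and *Col11a1* with a mean of 7.22 inside.

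**Figure D2:**
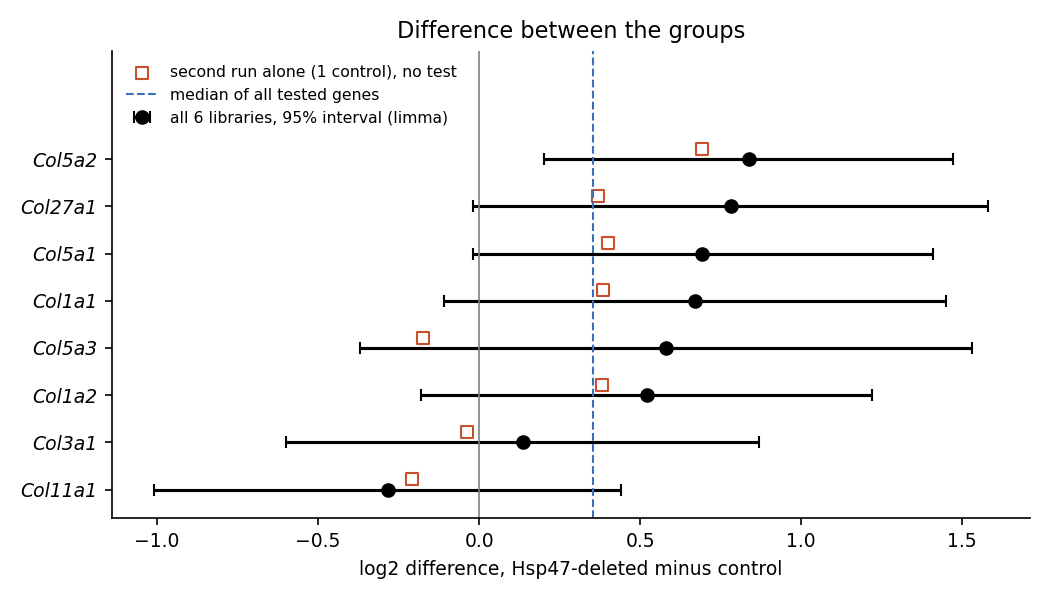
Log2 difference between the Hsp47flox/flox libraries and the controls for the 8 tested members, with the 95% interval of limma over all 6 libraries (black) and the difference from control 2 alone (open squares), and the median of all tested genes as a dashed line. The interval lies above 0 for *Col5a2* (0.20 to 1.47) and includes 0 for the other 7, and the interval of each of the 8 includes the median of all tested genes, 0.355.

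Of the 8 tested members, 7 had a difference above 0 and 4 (*Col5a2*, *Col27a1*, *Col5a1* and *Col1a2*) were higher without overlap between the groups, against 18.3% of all tested genes for that direction. None was lower without overlap, against 1.5% of all tested genes, and in either direction 19.8% did not overlap. The median difference of the 8 was 0.625, which lay 0.27 above that of all tested genes, and each of them had a control mean over the filter. By library, the median of the 8 lay at 0.23, -0.22 and -0.051 relative to the control mean in controls 2, 3 and 4, and at 0.70, 0.79 and 0.285 in Hsp47flox/flox 1, 2 and 3, where all tested genes lay at 0.074, -0.14 and 0.055 and at 0.32, 0.40 and 0.33. Hsp47flox/flox 3 was thus close to control 2 in these genes, and slightly below the median of all its genes. The median of the members relative to all tested genes was 0.087 against control 2 alone and -0.099 after trends over GC content and over transcript length had been taken out. In that last setting 7 of the 8 differences were still above 0. With quantile normalization 5 of the 8 were.

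**Figure D3:**
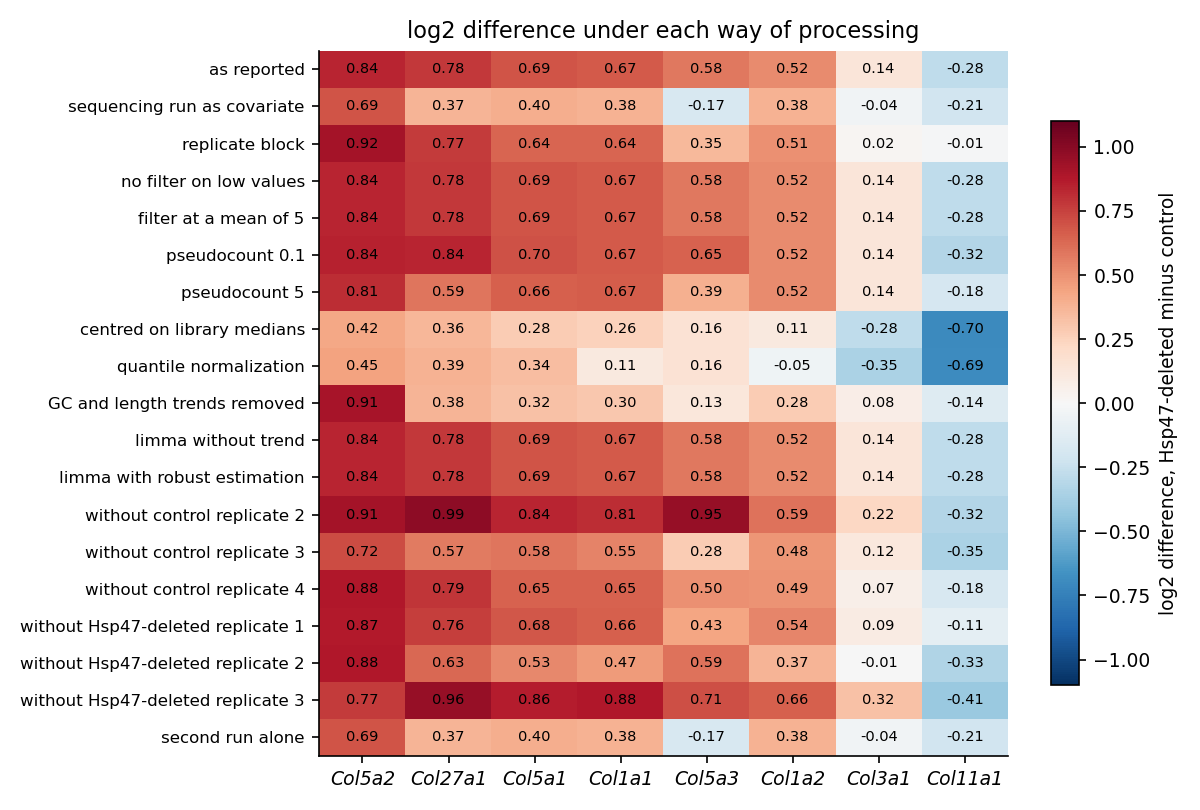
Log2 difference of the 8 tested members as reported and under each of 18 alternatives, with red for higher and blue for lower in the Hsp47flox/flox libraries. *Col5a2*, *Col27a1*, *Col5a1* and *Col1a1* were above 0 and *Col11a1* below 0 in each row, while *Col3a1*, *Col1a2* and *Col5a3* changed sign in at least 1 row. Rows that change only the filter or the variance estimate repeat the reported values, and run as a covariate repeats the second run alone.

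Chains were also compared with each other within a library, where a factor common to all genes of the library cancels. The log2 ratio of *Col3a1* to *Col1a1* was 1.06, 1.38 and 1.07 in controls 2, 3 and 4, and 0.70, 0.51 and 0.68 in Hsp47flox/flox 1, 2 and 3. All 3 Hsp47flox/flox libraries lay below all 3 controls, and the control of the second run sat with the other controls. The ratio averaged 1.17 ± 0.18 (SD, n = 3) in controls, against 0.63 ± 0.10 (SD, n = 3), a difference of -0.535 (exact permutation test, two-sided, p = 0.10, which is the lowest p possible with 3 libraries against 3, BH-adjusted p = 0.5 over 5 ratios). It was -0.42 against control 2 alone, and between -0.59 and -0.43 with any 1 library left out. With trends over GC content and length removed, a setting chosen for the ratios after the data had been seen, the difference shrank to -0.22 and the groups overlapped (exact permutation p = 0.4, two-sided), with 0.96, 0.82 and 0.445 in controls 2, 3 and 4 against 0.65, 0.455 and 0.46 in Hsp47flox/flox 1, 2 and 3. The transcripts differ in GC content, 52.5% for *Col3a1* and 58.9% for *Col1a1*. With quantile normalization, also added for the ratios after the data had been seen, the difference was -0.46 without overlap (exact permutation p = 0.10, two-sided). The ratio to *Col1a1* was lower without overlap for 10.0% of the other tested genes and higher without overlap for 2.72%, with a median difference of -0.32, so a separation of this kind is not particular to *Col3a1*. Accordingly, *Col3a1* took up 42.4%, 45.2% and 41.3% of the summed linear value of the 10 genes in controls 2, 3 and 4, and 36.6%, 34.8% and 33.5% in Hsp47flox/flox 1, 2 and 3, as deposited and without removal of such trends. These shares treat the values as comparable between genes, which holds if they are per transcript length, and the longest transcripts of *Col3a1* (5564 bases), *Col1a2* (5348 bases) and *Col1a1* (5930 bases) are close in length.

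**Figure D4:**
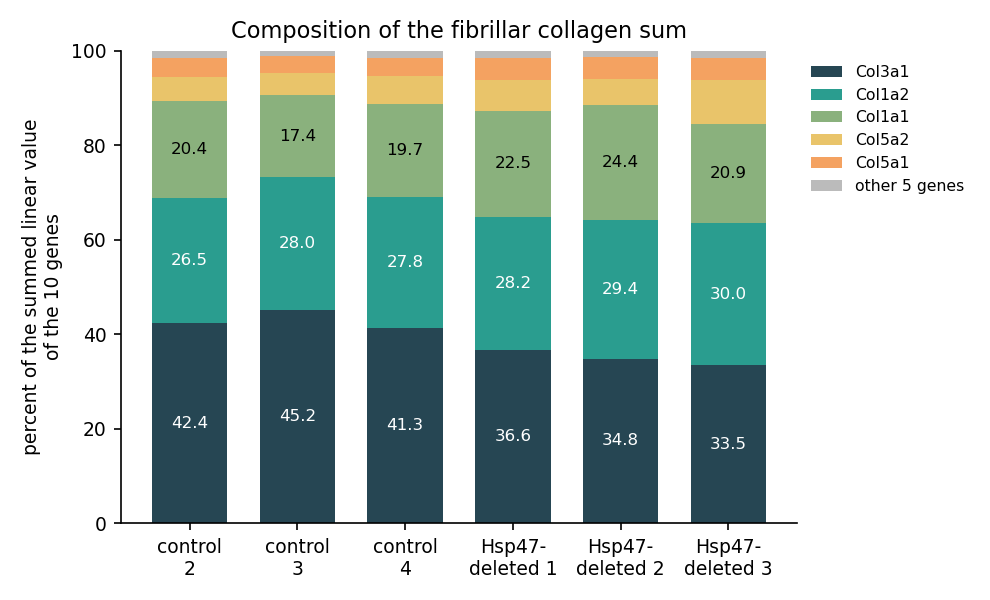
Share of each gene in the summed linear value of the 10 fibrillar collagen genes, in percent, with 1 bar per library. *Col3a1* makes up 41.3% to 45.2% of the bar in controls and 33.5% to 36.6% in the Hsp47flox/flox libraries, and *Col3a1*, *Col1a2* and *Col1a1* together make up 84.4% to 90.6%.

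*Col5a1* and *Col1a1*, whose chains meet in the same fibrils, stayed in a nearly constant ratio. Their log2 ratio was -2.30, -2.27 and -2.35 in controls 2, 3 and 4, and -2.28, -2.36 and -2.21 in Hsp47flox/flox 1, 2 and 3, with group means of -2.30 ± 0.040 (SD, n = 3) and -2.28 ± 0.076 (SD, n = 3). The difference of 0.020 was within the spread between libraries (two-sided exact permutation p = 0.8, BH-adjusted p = 0.8 over 5 ratios). Across the 6 libraries the SD of this ratio was 0.056, the smallest of the ratios to *Col1a1* of 15108 tested genes, whose median SD was 0.593. With quantile normalization the ratio was less even, from -2.63 to -2.10 in controls and from -2.30 to -2.06 in the Hsp47flox/flox libraries. The 2 type I chains kept to each other less closely. The log2 ratio of *Col1a2* to *Col1a1* ran from 0.375 to 0.69 in controls and from 0.27 to 0.52 in the Hsp47flox/flox libraries (difference -0.149, two-sided exact permutation p = 0.3, BH-adjusted p = 0.75 over 5 ratios), and from control 2 alone it differed by -0.004.

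Within type V, the log2 ratio of *Col5a2* to *Col5a1* was 0.295, 0.41 and 0.61 in controls 2, 3 and 4, and 0.50, 0.18 and 1.08 in Hsp47flox/flox 1, 2 and 3. Hsp47flox/flox 3 was the highest of the 6 and replicate 2 the lowest, so the ratio spread more within that group than between the groups (difference 0.15, two-sided exact permutation p = 0.8, BH-adjusted p = 0.8 over 5 ratios). Without Hsp47flox/flox 3 the difference was -0.097, and with GC and length trends removed it was 0.59, still with overlap (exact permutation p = 0.2, two-sided). The ratio of *Col5a3* to *Col5a1* differed by -0.112 and the groups overlapped in part, with Hsp47flox/flox 2 lowest and control 2 highest (two-sided exact permutation p = 0.8, BH-adjusted p = 0.8 over 5 ratios).

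**Figure D5:**
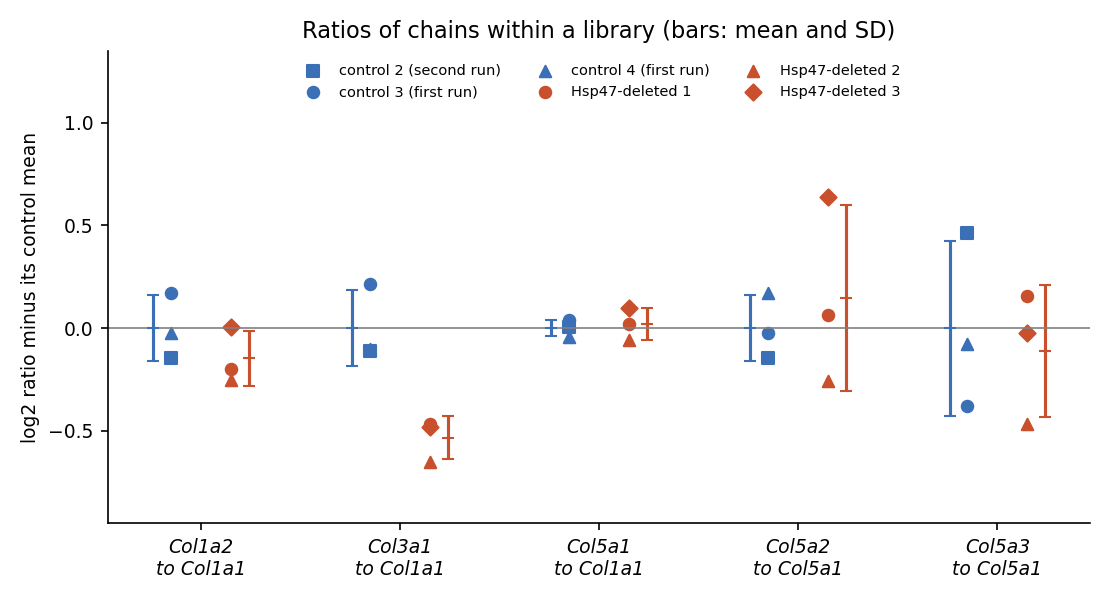
Log2 ratio of pairs of chains within each library, relative to the control mean of that ratio, with 1 point per library and bars for the mean and SD of each group (n = 3). *Col3a1* to *Col1a1* differs by -0.535 on average in the 3 Hsp47flox/flox libraries (by -0.22, with overlap, once GC and length trends are removed), *Col5a1* to *Col1a1* stays within 0.1 of the control mean in each library, and *Col5a2* to *Col5a1* is widest in the Hsp47flox/flox libraries.

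The likeness of patterns was measured as the root mean square distance of log2 values over the 6 libraries, each gene centred on its own mean. For *Col1a1* this is the same spread as the SD of the log2 ratio to *Col1a1* given above. The first place of *Col5a1* therefore repeats that result and adds no second one. For *Col1a1* the nearest of all 15108 other tested genes was *Col5a1* (0.051), with *Col27a1* the 28th (0.118) and *Col1a2* the 67th (0.141), against a median distance of 0.541. Outside the family the nearest to *Col1a1* were *Nup210l* (0.066), *Ube3c* (0.071) and *Pde12* (0.072). For *Col5a1*, *Col1a1* was the second nearest after *Gpr124* (0.037), an adhesion receptor gene, and was followed outside the family by *Ltbp4* (0.056), which encodes a binding protein of latent TGF-β, and *Ube3c* (0.066). *Col1a2* was nearest to *Prkacb* (0.034), *Emc1* (0.048) and *Gm15567* (0.057). *Col3a1* was nearest to *Rap1gds1* (0.031), *Klf12* (0.043) and *Ispd* (0.046), and the member closest to it, *Col1a2*, came at place 644. *Col5a2* was nearest to *Zfp384* (0.048), *Tomm34* (0.058) and *Swap70* (0.063), with *Col5a1* at place 1307. These distances describe 6 libraries that share runs and groups.

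The genes that fold, trim, cross-link, bind and break down fibrillar collagen were read from lists written for this comparison. Of 17 genes of procollagen folding and hydroxylation, all tested, none passed the adjusted threshold and 5 passed an unadjusted limma p under 0.05, each higher (14.5% of all tested genes). The median log2 difference of the 17 was 0.72, against 0.296 from control 2 alone. Over all tested genes these medians were 0.355 and 0.288, so from control 2 alone the list lay close to all genes. The smallest p belonged to *P3h3*, a prolyl 3-hydroxylase gene (1.25, standard error 0.39, limma, BH-adjusted p = 0.282), and *Fkbp10*, encoding a procollagen prolyl isomerase (1.13, standard error 0.36, limma, BH-adjusted p = 0.283). Against control 2 alone *P3h3* differed by 0.48 and *Fkbp10* by 0.65. Propeptide cleavage was represented by 7 tested genes of 8, of which none passed the adjusted threshold and 3 passed the unadjusted one, each higher (14.5% of all tested genes). *Bmp1*, the procollagen C-proteinase gene, had a log2 difference of 1.15 (limma, BH-adjusted p = 0.292), and its enhancer gene *Pcolce2* one of 1.03 (limma, BH-adjusted p = 0.293). From control 2 alone *Bmp1* differed by 0.33 and *Pcolce2* by 0.6. Among the 5 lysyl oxidase genes, whose enzymes cross-link the finished fibrils, none passed the adjusted threshold. The unadjusted one was passed by 2, both higher (14.5% of all tested genes). *Loxl3* had a control mean of 4.59 ± 0.21 (SD, n = 3) and an Hsp47flox/flox mean of 6.41 ± 0.38 (SD, n = 3), without overlap (log2 difference 1.82, limma, BH-adjusted p = 0.0864), and *Loxl1* differed by 1.71 with overlap. The differences from control 2 alone were 1.61 for *Loxl3* and 0.32 for *Loxl1*.

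Of the lists of genes that act on collagen, only that of fibril assembly held calls past the adjusted threshold. The lists were written with earlier results of these data known, so this placing is not independent of them. Of 19 genes, all tested, 3 rose at a BH-adjusted limma p under 0.05 (*Postn*, *Fmod* and *Comp*), against 0.232% of all tested genes. In the same list 10 were higher at an unadjusted p under 0.05 (14.5% of all tested genes), and 11 were higher without overlap (18.3% of all tested genes). *Postn*, encoding the matricellular protein periostin and the locus that carries MerCreMer here, rose by 4.41 (limma, BH-adjusted p = 0.00337). *Fmod*, encoding the small proteoglycan fibromodulin that binds type I fibrils, rose by 2.42 (limma, BH-adjusted p = 0.0485), and *Comp*, encoding a cartilage and tendon matrix protein that binds collagen, by 3.70 (limma, BH-adjusted p = 0.0485). Only 1 gene of this list passed with the libraries centred on their medians or quantile normalized, or without any 1 library other than control 2, and without control 2, 9 passed. Against control 2 alone *Postn* was 4.24, *Fmod* 2.45 and *Comp* 2.53 higher. In the same comparison *Col5a2* was 0.69 higher and *Col3a1* 0.039 lower.

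Of 8 tested collagen receptor genes (of 10), 1 was higher at an unadjusted limma p under 0.05 (14.5% of all tested genes) and none after adjustment. *Itga11*, encoding the collagen-binding integrin chain α11 of fibroblasts, differed by 1.73 (limma, BH-adjusted p = 0.0727), without overlap, and *Ddr1*, a collagen receptor kinase gene, by 0.96 with overlap. The differences from control 2 alone were 1.49 for *Itga11* and 0.33 for *Ddr1*. Of 9 genes of collagen breakdown, 5 were tested and 2 were higher at an unadjusted p under 0.05 (14.5% of all tested genes). They were the gelatinase gene *Mmp2* (1.07, limma, BH-adjusted p = 0.252) and *Ctsk*, encoding the collagen-degrading cathepsin K (1.00, limma, BH-adjusted p = 0.294). From control 2 alone *Mmp2* differed by 0.97 and *Ctsk* by 0.9. Of 18 genes of transcription factors that act on fibrillar collagen genes, 5 were higher at an unadjusted p under 0.05 (14.5% of all tested genes) and none after adjustment. At the smallest p were *Smad7*, an inhibitor of TGF-β signaling (1.39, limma, BH-adjusted p = 0.251), and *Mrtfa*, a coactivator of serum response factor (1.11, limma, BH-adjusted p = 0.263). Against control 2 alone *Smad7* differed by 0.95 and *Mrtfa* by 0.81.

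Among the 33 other collagen genes, 25 were tested, with 1 called higher (0.232% of all tested genes) and none lower. At an unadjusted limma p under 0.05, 7 were higher and 1 lower, against 14.5% and 0.755% of all tested genes. The median log2 difference of the 25 was 0.467, against 0.355 over all tested genes. *Col22a1*, a collagen of tissue junctions, rose by 2.43 (limma, BH-adjusted p = 0.0293), and *Col8a2*, a network-forming collagen, differed by 2.08 (limma, BH-adjusted p = 0.0999). The differences from control 2 alone were 2.22 for *Col22a1* and 1.48 for *Col8a2*. *Col22a1* was no longer called with sequencing run as a covariate, with centring on the median, with quantile normalization and without any 1 library other than control 2. The median of the 8 fibrillar genes, 0.625, and that of the 25 other collagens became 0.21 and 0.052 with the libraries centred on their medians.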

How the data were processed

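RNA-seq was analysed in 3 control libraries and 3 labelled Hsp47-deleted. The authors deposited log2(value + 1) for 28987 genes, 1 column per library, with group means and their own comparison (folds, p-values), which were not used. Per the labels, RNA was amplified before library construction, and the processing notes list kallisto and mm10; the annotation is not given in the sources used here. The 10 collagen genes, all gene lists and the tests were chosen with earlier results of these data known. Genes with a mean linear value of at least 1 over the 6 libraries were kept (15109; 13878 were left out), and limma 3.58.1 (R 4.3.3) was fitted to both groups (mean-variance trend, no covariate, BH adjustment over all tested genes), tested on simulated data. Chain ratios used an exact permutation test. Named genes were the 10 members, *Serpinh1*, the 2 genes of each list with the smallest p and any past the adjusted threshold, and the 3 genes nearest in pattern to 5 chains. Positions, transcripts and GC content came from GENCODE M21 (GRCm38). Depth is unknown, so no interval that needs counts is given.

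Alternatives were sequencing run as a covariate, the second run alone, a block for the replicate number, leaving out the filter, raising it to a mean of 5, a pseudocount of 0.1 or 5, centring on library medians, quantile normalization, removal of GC and length trends (lowess, span 0.3, 97.8% of tested genes), limma without trend, robust limma (statmod 1.5.0), and leaving out each library. For the chain ratios, quantile normalization and removal of GC and length trends were added after seeing the data.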

Additional observations from a re-analysis of the deposited data

How the results depend on the processing

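Of the 8 tested members none was called as reported, with limma without its trend, or with robust estimation, and 1 (*Col5a2*) was called without control 2 (range 0 to 1 with 1 library left out). The median of the 8 differences, 0.625, was 0.375 with sequencing run as a covariate and against the second run's control alone, 0.21 with centring on library medians, 0.13 with quantile normalization and 0.29 with GC and length trends removed. Genes called over the whole table numbered 37, and 16 with a pseudocount of 0.1, 18 with centring, 17 with quantile normalization and 8 to 2768 with 1 library left out, the highest without control 2. With sequencing run as a covariate 50 were called, 18 higher and 32 lower, against 35 and 2 as reported. That fit takes each difference from control 2 alone, because the first run holds only controls, so the difference behind each call rests on 1 control library. With the replicate number as a block 0 genes were called, and *Serpinh1* differed by -0.28. Each difference then came only from the libraries numbered 2 and 3. The groups share these numbers but differ in genotype, so these libraries come from different mice. The deviations of the same-numbered libraries correlated at 0.156 and 0.228. *Col3a1* became -0.28 (centring), -0.35 (quantile), -0.039 (run as covariate, or second run alone) and -0.006 to 0.32 with 1 library left out. *Col5a3* became -0.17 with run as a covariate or the second run alone, and *Col1a2* -0.046 with quantile normalization. *Serpinh1* became -0.87 with run as a covariate or the second run alone, -0.34 (centring), -0.27 (quantile), -0.24 (GC and length trends removed) and -0.21 to 0.54 with 1 library left out. The log2 ratio difference of *Col5a2* to *Col5a1* ranged from -0.097 to 0.351 with 1 library left out, and that of *Col5a3* to *Col5a1* was -0.57 in the second run alone. In settings added for the ratios after seeing the data, removal of GC and length trends gave -0.22 for *Col3a1* to *Col1a1* and 0.59 for *Col5a2* to *Col5a1*. Quantile normalization gave 0.23 for *Col5a1* to *Col1a1* and -0.46 for *Col3a1* to *Col1a1*. The cause of these shifts was not tested.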

Other observations

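The heptamer TGGTGCT that matches the miR-29 seed was also looked for in the 3' untranslated regions of the 33 other collagen genes, a search added after the members had been examined. It was present in 16 of them (48.5%), against 90.0% of the fibrillar members and 15.5% of tested genes. Over all tested genes with an annotated region, the members left out, the median log2 difference between the Hsp47flox/flox libraries and the controls was 0.31 for the 1967 genes with the heptamer and 0.39 for the 10780 genes without it. In the family itself the heptamer was present in *Col5a2*, with the largest difference of the tested members (0.84), and in *Col11a1*, with a difference of -0.28. The other tested members also held it, except *Col1a2* (0.52). With only 1 member lacking it, members with and without the heptamer cannot be compared.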
